A study of Mus musculus with 58 samples.

Results

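The 10 genes described here are the BCL2 family members Bcl2, Bcl2l1, Mcl1, Bax, Bak1, Bcl2l11, Bbc3, Pmaip1 and Bid and the death receptor gene Fas, out of 55376 genes in the RNA count files of mouse hematopoietic stem cells (HSCs). They were chosen by name: 3 anti-apoptotic members, 2 effectors, 4 BH3-only members and the receptor. The choice was made with RNA values of these libraries in view, so the RNA differences are given as descriptions, and nothing is read from how many members were called. The accessibility, PU.1 and histone measurements come from other libraries than the RNA counts.

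The BCL2 family controls whether the outer mitochondrial membrane stays closed. Bax and Bak1 open it and release cytochrome c, the anti-apoptotic members hold them back, and the BH3-only members sense stress and relieve that restraint. Fas sits at the cell surface and, when its ligand binds, recruits FADD and caspase-8, which can cleave BID and so pass the signal on to mitochondria. In HSCs, Mcl1 is known to be required for survival.

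HSCs of male wild type C57BL/6 mice were compared across 6 diet groups. Old mice of 24 to 26 months were fed ad libitum (OAL, 4 RNA libraries), kept on lifelong caloric restriction at 40% below that intake (OCR, 4), or refed for 4 weeks after lifelong restriction (OCRRF, 2). Young mice that began at 3 to 4 months were fed ad libitum (YAL, 4), restricted for 4 weeks, with a 20% restriction in the first week (YCR, 4), or refed for 4 weeks after that (YCRRF, 4). The old mice came from the NIA Aged Rodent Colony and the young mice from The Jackson Laboratory. Age and source therefore cannot be told apart in OAL against YAL HSCs. In a second experiment, HSCs of aged mice were infected with shRNA against Kdr in a GFP vector (GFP_Kdr, 4 libraries), or with Kdr shRNA and 1 of 2 Bmpr1a shRNAs in an mCherry vector (double knockdown, 2 libraries per Bmpr1a shRNA), each with a scramble control in the same vectors (2 libraries each), and were transplanted at about 500 cells per irradiated female CD45.1 recipient. Kdr encodes the VEGF receptor FLK1 and Bmpr1a a BMP receptor. The diet groups were sorted as Lin- Sca-1+ c-Kit+ CD34- Flk2- CD150+ cells, and the transplanted cells as Lin- Sca-1+ c-Kit+ CD48- CD150+ CD45.2+ cells. The knockdown was made before transplantation, so those libraries hold the infected cells and their progeny that kept this phenotype in a host. Whether each library came from a separate mouse is not given in the labels, so p-values measure the spread between libraries.

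The old libraries held 23497989 to 34385179 counts, the young libraries 11102898 to 36579392 and the transplanted libraries 35657999 to 44780217. All 8 HSC marker genes had reads in every diet library, with a summed level of 3506 to 4991 CPM (counts scaled to the library total after TMM normalization). Olfactory and vomeronasal receptor genes, which HSCs should lack, summed to 530 to 1486 CPM in the old libraries, 66.5 to 474 in the young and 21.5 to 42.1 in the transplanted ones, and their part in the comparison of old with young was not tested. YCR replicate 1 was the highest or lowest of its group for 9 of the 10 members (7 highest, 2 lowest) and YCRRF replicate 3 for 8 (2 highest, 6 lowest). The other libraries in groups of 4 were so for 2 to 7. Over all genes, the chi-square per gene between 2 libraries of a group was 153 to 336 with YCRRF replicate 3. It was at most 56.5 in any other pair, and 32.2 to 54.5 with YCR replicate 1. Values without YCR replicate 1 and YCRRF replicate 3 are given below where they matter.

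Per kilobase of exon, Mcl1 had the highest level of the 10 genes in all 6 diet groups and Pmaip1 the lowest. In OAL HSCs the mean levels in CPM per kilobase were 74.3 for Mcl1, 23.8 for Bax, 17.2 for Bcl2, 12.5 for Bcl2l1, 11.9 for Bid, 4.83 for Bbc3, 3.50 for Fas, 2.82 for Bcl2l11, 1.96 for Bak1 and 0.227 for Pmaip1 (n = 4). Bcl2l1 and Bid, and Bcl2l11 and Bak1, which are neighbours in this order, overlapped between libraries, and the other neighbours did not. In YAL HSCs Bid stood higher, at 18.9 ± 3.5 CPM per kilobase (SD, n = 4) against 12.9 ± 0.94 for Bcl2 and 12.2 ± 1.3 for Bcl2l1. All values that follow are CPM, which compare 1 gene between libraries.

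**Figure D1:**
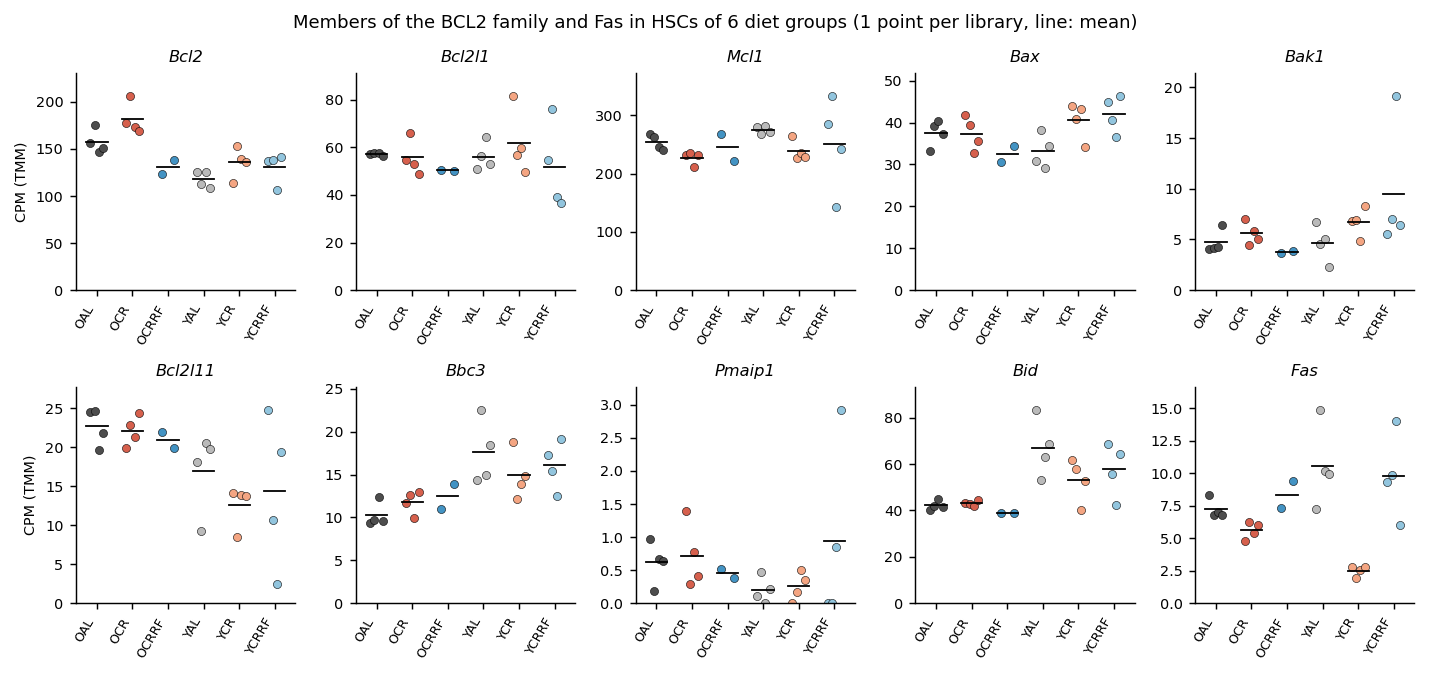
CPM of each of the 10 genes (vertical axes from 0, each on its own scale) in the 22 libraries of the 6 diet groups, with 1 point per library and a line at the group mean. The 4 YCR libraries lie between 1.95 and 2.81 CPM for Fas, below every other diet library, and YCRRF replicate 3 lies at 19.1 CPM for Bak1.

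A gene was called where its adjusted p was below 0.05 and its fold above 1.2, in a fit over all genes tested (edgeR's quasi-likelihood test with Benjamini-Hochberg adjustment). The comparison of OCR with OAL HSCs asks what lifelong low intake does to old HSCs. In OCR against OAL HSCs, 0 of the 10 members were called by edgeR and 0 by DESeq2, while 5.57% of all genes tested were called (2.54% higher, 3.03% lower), and 2 members had an unadjusted p below 0.05 (16.2% of all genes). The members' median log2 fold change was 0.03, and that of all genes was 0.02. Refeeding asks whether such changes revert. In OCRRF against OCR HSCs 1 member, Bcl2, was called (3.41% of all genes, 0.694% as higher and 2.71% as lower), with a median of -0.21 over members and 0.11 over all genes. In OCRRF against OAL HSCs 0 members were called by edgeR and 3 by DESeq2 (Bcl2, Bcl2l1 and Bax, all lower), against 4.14% of all genes by edgeR (1.66% higher, 2.48% lower). There 3 members had an unadjusted p below 0.05 (26.9% of all genes) and the medians were -0.16 for the members and 0.12 for all genes. The median of all genes is not at 0 in these last comparisons, and it ranged from 0.03 to 0.24 for OCRRF against OCR and from -0.01 to 0.28 for OCRRF against OAL over the alternative settings.

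The short restriction in young mice asks for a response without old age. It differed from the lifelong restriction in duration and had a milder first week, and old and young mice came from different sources. Age, duration, first week and source therefore cannot be told apart where the old response is set against the young one. In YCR against YAL HSCs 1 of 9 members tested, Fas, was called (0.257% of all genes, 0.0642% as higher and 0.193% as lower). The medians were -0.18 for the members and 0.01 for all genes, and Pmaip1 had too few reads to be tested. In YCRRF against YCR HSCs 0 members were called by edgeR and 1, Fas, by DESeq2, against 0.0102% of all genes by edgeR, and 1 member had an unadjusted p below 0.05 (7.27% of all genes). In YCRRF against YAL HSCs 0 members were called by edgeR or DESeq2, 0% of all genes were called, and 0 members had an unadjusted p below 0.05 (3.69% of all genes). With age, in OAL against YAL HSCs, 3 members were called, with Bcl2 higher and Bbc3 and Bid lower, against 14.8% of all genes (6.89% higher, 7.93% lower). The medians were 0.03 for the members and 0.05 for all genes, and that of all genes ranged from -0.01 to 1.07 over the alternative settings, the highest without a filter on low counts. The old response to restriction minus the young one was called for 0 members by edgeR and for 1, Fas, by DESeq2, against 0.0424% of all genes by edgeR (0.0177% higher, 0.0247% lower), with 1 member at an unadjusted p below 0.05 (8.93% of all genes). The comparisons within an age share libraries, and OAL and YAL HSCs each enter several of them.

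**Figure D2:**
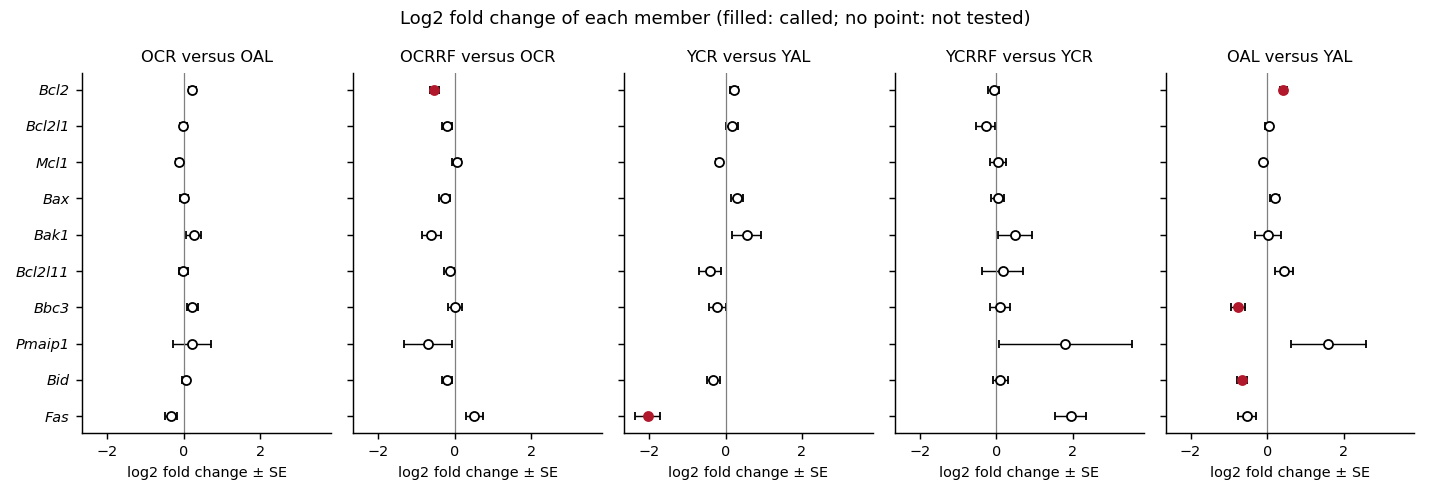
Log2 fold change of each gene with its SE (horizontal axis) in 5 of the comparisons of diet groups, with filled points for called genes and no point where a gene was not tested. Fas in YCR against YAL HSCs lies at -2.04, Bcl2 in OCRRF against OCR HSCs at -0.53, and Bcl2, Bbc3 and Bid in OAL against YAL HSCs at 0.43, -0.76 and -0.65.

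Bcl2, at chr1:106538178-106714274 on the minus strand (mm10), encodes the founding anti-apoptotic member of the family. It stood at 125, 113, 126 and 109 CPM in the YAL libraries and at 157, 176, 147 and 152 CPM in the OAL libraries. Every OAL library was above every YAL library, and Bcl2 rose with age by 0.43 on the log2 scale (SE 0.0785, adjusted p = 0.00669, edgeR). This call was kept in all 8 fits with a library left out, with adjusted p of 0.00915 to 0.0335. Beside it, 5 NK cell genes summed to 24.8 to 40.1 CPM in YAL and 57.5 to 68.6 in OAL HSCs. Most of this sum was Klrb1c and Nkg7. Ncr1, Gzma and Prf1 reached at most 0.840, 0.383 and 1.99 CPM in any diet library. The 6 B cell genes summed to 62.5 to 117 CPM in YAL and 38.1 to 43.5 CPM in OAL HSCs. The part of both sums in the age differences was not tested. In bulk libraries, fewer cells of a type that expresses a gene and less of its RNA per cell cannot be told apart, here or in the results that follow.

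With lifelong restriction Bcl2 was at 177, 206, 173 and 169 CPM in OCR HSCs. The OAL and OCR libraries overlapped, with a log2 fold change of 0.22 (SE 0.0847, adjusted p = 0.159). After refeeding it was at 124 and 138 CPM, below all 4 OCR and all 4 OAL libraries. Bcl2 fell by 0.53 on the log2 scale from OCR to OCRRF HSCs (SE 0.122, adjusted p = 0.00712). This call rested on 2 OCRRF libraries: without replicate 1 the adjusted p was 0.296 and without replicate 2 it was 0.0665, and in 1 fit of all 6 diet groups it was 0.304. Against OAL HSCs the log2 fold change after refeeding was -0.28 (SE 0.0826, adjusted p = 0.0559). The summed level of 5 megakaryocyte genes was 252 to 357 CPM in OCR, 222 to 226 in OCRRF and 248 to 272 in OAL HSCs. B cell genes summed to 46.3 to 49.4 CPM in OCRRF against 36.7 to 44.7 in OCR and 38.1 to 43.5 in OAL HSCs, HSC genes to 3550 to 3612 against 3506 to 4168 and 4035 to 4606, and the receptor genes to 1161 to 1486 against 561 to 1257 and 530 to 752. The part of these in the differences was not tested.

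In the young groups Bcl2 was at 114, 153, 139 and 137 CPM in YCR HSCs and at 137, 138, 106 and 141 CPM in YCRRF HSCs. These values overlapped those of YAL HSCs. The log2 fold change with short restriction was 0.22 (SE 0.111, adjusted p = 0.589), beside 0.22 in old mice, and neither was called. The old response minus the young one was 0.01, and -0.08 to 0.08 with a library left out. An antisense gene, D630008O14Rik, overlaps Bcl2, and whether the counting used strand is not given in the sources used here.

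Bcl2l1, which encodes BCL-XL, another anti-apoptotic protein, varied little between old groups. It was at 57.1, 57.5, 57.6 and 56.2 CPM in OAL HSCs, at 54.8, 66.2, 53.2 and 48.8 CPM in OCR HSCs and at 50.4 and 50.2 CPM in OCRRF HSCs. Both OCRRF libraries were below all 4 OAL libraries but not below all OCR libraries, and the log2 fold change of OCRRF against OAL HSCs was -0.20 (adjusted p = 0.132), and -0.28 and called with DESeq2. The young libraries spread more widely, from 51.0 to 64.2 CPM in YAL, 49.8 to 81.4 in YCR and 36.4 to 76.3 in YCRRF HSCs, with overlap throughout. With age the log2 fold change was 0.04.

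Mcl1, at chr3:95658788-95663176 on the plus strand, encodes a short-lived anti-apoptotic protein. It stood at 268, 263, 245 and 240 CPM in OAL HSCs and at 232, 236, 211 and 232 CPM in OCR HSCs. All OCR libraries were below all OAL libraries, with a log2 fold change of -0.14 (SE 0.0785, adjusted p = 0.404), which did not pass the test. The young groups were alike in this: 281, 267, 282 and 272 CPM in YAL HSCs stood above 266, 227, 236 and 228 CPM in YCR HSCs, with a log2 fold change of -0.18 (SE 0.0731, adjusted p = 0.454). Refed libraries were at 269 and 222 CPM in OCRRF HSCs and at 286, 333, 142 and 243 CPM in YCRRF HSCs, overlapping the restricted groups. Without YCRRF replicate 3, at 142 CPM, the log2 fold change of YCRRF against YCR HSCs was 0.24 in place of 0.05.

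A PU.1 peak lay at the start of Mcl1 in 3 of 6 PU.1 libraries, at a fold enrichment of 8.30 in OAL replicate 2, 5.96 in OCR replicate 1 and 5.95 in OCRRF replicate 1. PU.1 is an ETS family transcription factor that directs myeloid and lymphoid genes. The study lists 2 anti-PU.1 antibodies, and which library used which is not given in the sources used here. The summits lay 85, 90 and 40 bases upstream of the GENCODE start of the gene. The part of this region upstream of the RefSeq start is shown because it carries the only PU.1 peak within 1 kb of a start among the 10 genes (RefSeq, GRCm38.p6, chr3:95658577-95658720, plus strand, 144 bases). Capitals mark the ETS core CGGAAG, searched on both strands, and the letters GAGGAA, the PU.1 form of that core, were not found in it.
Mcl1 upstream region: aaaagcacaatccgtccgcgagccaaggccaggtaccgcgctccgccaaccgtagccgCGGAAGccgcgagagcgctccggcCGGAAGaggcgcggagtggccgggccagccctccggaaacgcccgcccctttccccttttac
CGGAAG began 86 and 62 bases upstream of the RefSeq start, which puts both copies within the span of the peak. The letters CGGAAG occur in 10.1% of all 32851 promoter windows cut to this length and GAGGAA in 13.9%, and a match is a description of the letters and not a binding site.

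The effectors Bax and Bak1 were not called by edgeR in any comparison of diet groups. Bax was at 33.2, 39.3, 40.4 and 37.3 CPM in OAL HSCs, 41.7, 39.3, 32.6 and 35.6 CPM in OCR HSCs and 30.6 and 34.4 CPM in OCRRF HSCs. The log2 fold change with lifelong restriction was 0.01 (adjusted p = 0.980), and with refeeding -0.26 (SE 0.140, adjusted p = 0.346). DESeq2 alone among the alternatives called Bax in OCRRF against OAL HSCs, at -0.31. In young mice it was at 30.7, 38.2, 29.0 and 34.4 CPM in YAL HSCs, 43.9, 40.8, 43.1 and 34.1 CPM in YCR HSCs and 44.9, 40.5, 36.5 and 46.2 CPM in YCRRF HSCs. In YCR HSCs 3 libraries were above all YAL libraries and 1 was within them (log2 fold change 0.31, SE 0.156, adjusted p = 0.592). Gm45808 overlaps Bax on the same strand, so reads in the shared exons are uncertain.

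Bak1 was lower than Bax per kilobase in every group. It was at 4.05, 4.12, 4.27 and 6.42 CPM in OAL HSCs, 7.03, 4.43, 5.88 and 5.01 CPM in OCR HSCs and 3.71 and 3.91 CPM in OCRRF HSCs. Both OCRRF libraries were below all other old libraries, and the log2 fold change against OCR HSCs was -0.61 (SE 0.252, adjusted p = 0.199), called only by DESeq2 (-0.69, adjusted p = 0.0465) among the tools run. Young libraries were at 6.74, 4.57, 5.08 and 2.31 CPM in YAL, 6.85, 6.93, 4.86 and 8.29 in YCR and 5.58, 7.05, 19.1 and 6.39 in YCRRF HSCs. The YCRRF mean was set by replicate 3: the log2 fold change against YAL HSCs was 1.05 with it and 0.44 without it, and against YCR HSCs 0.49 with it and -0.10 without it. Ggnbp1, which overlaps Bak1 on the other strand, had 867 counts in that library, or 25.8 CPM without TMM scaling, against 6.34 to 16.5 CPM in the other young libraries, and its part in the Bak1 value was not tested.

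Bcl2l11, which encodes the BH3-only protein BIM, lay between 19.7 and 24.6 CPM in all 10 old libraries. It was at 24.5, 24.6, 19.7 and 21.8 CPM in OAL HSCs, at 19.9, 22.9, 21.3 and 24.4 CPM in OCR HSCs and at 22.0 and 20.0 CPM in OCRRF HSCs, with log2 fold changes of -0.02 with restriction and -0.13 with refeeding. The young libraries were at 18.1, 9.33, 20.5 and 19.7 CPM in YAL, 14.2, 8.47, 13.9 and 13.8 in YCR and 24.8, 10.7, 2.47 and 19.4 in YCRRF HSCs. They overlapped, and the refed libraries alone ran from 2.47 to 24.8 CPM. With age the log2 fold change was 0.43 (SE 0.228, adjusted p = 0.227).

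Bbc3 encodes PUMA, a BH3-only protein and p53 target. It was at 14.4, 22.5, 14.9 and 18.4 CPM in YAL HSCs and at 9.31, 9.76, 12.4 and 9.59 CPM in OAL HSCs. All old libraries were below all young ones, and Bbc3 fell with age by 0.76 on the log2 scale (SE 0.191, adjusted p = 0.0233). The call was lost without OAL replicate 1, 2 or 4 (adjusted p of 0.0744 to 0.0845) and with TMM factors from genes of at least 5 CPM (-0.65, adjusted p = 0.0506). OCR libraries at 11.6, 12.6, 9.99 and 12.9 CPM and OCRRF libraries at 10.9 and 13.9 CPM overlapped those of OAL HSCs (log2 fold changes 0.22, adjusted p = 0.497, and 0.26, adjusted p = 0.294). The YCR libraries, at 18.8, 12.2, 13.9 and 14.9 CPM, and the YCRRF libraries, at 17.3, 15.5, 12.5 and 19.2 CPM, overlapped those of YAL HSCs.

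Pmaip1, which encodes the BH3-only protein NOXA, had 0 to 48 counts per library. It was at 0.977, 0.190, 0.674 and 0.639 CPM in OAL, 1.39, 0.288, 0.776 and 0.420 in OCR and 0.526 and 0.383 in OCRRF HSCs. In the young groups it was at 0.118, 0.473, 0 and 0.220 CPM in YAL, 0, 0.178, 0.512 and 0.347 in YCR and 0, 0, 0.848 and 2.92 in YCRRF HSCs. A count of 0, which allows up to 3 counts, corresponded to at most 0.0863 to 0.103 CPM in these 4 libraries. Differences between the groups were not detectable at this depth, and the log2 fold change with age was 1.60 with an SE of 0.989 (adjusted p = 0.307).

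Bid, at chr6:120891930-120916853 on the minus strand, encodes the BH3-only protein that caspase-8 cleaves. It was at 83.4, 53.3, 63.1 and 68.6 CPM in YAL HSCs and at 40.4, 42.0, 45.1 and 41.7 CPM in OAL HSCs. All OAL libraries were below all YAL libraries, and Bid fell with age by 0.65 on the log2 scale (SE 0.133, adjusted p = 0.0103). The call was kept in all 8 fits with a library left out, with adjusted p of 0.00321 to 0.0423. These libraries are the same in which the B cell and NK cell sums stood apart. OCR libraries, at 43.1, 42.9, 42.1 and 44.5 CPM, overlapped OAL libraries (log2 fold change 0.05, SE 0.0876, adjusted p = 0.877), and OCRRF libraries were at 39.0 and 39.1 CPM. YCR libraries were at 61.6, 58.1, 40.1 and 52.8 CPM and YCRRF libraries at 68.8, 55.6, 42.4 and 64.1 CPM, with a log2 fold change of -0.32 with short restriction (SE 0.176, adjusted p = 0.647). Bcl2l13 overlaps Bid on the other strand.

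Bid held the PU.1 peak found in the most libraries among the 10 genes. Its region at chr6:120902013-120902407 had a peak in 5 of 6 PU.1 libraries, with a fold enrichment of 8.13 and 10.4 in OAL, 8.13 and 13.4 in OCR and 9.92 in OCRRF replicate 1, and none was called in OCRRF replicate 2, the library with the fewest peaks (2262, against 2817 to 5464 in the others). The summits lay 14622 to 14685 bases into the gene, in an intron. The 300 bases around the median summit are shown as the strongest PU.1 site among the members (chr6:120902041-120902340, mm10, minus strand, as Bid is read). Capitals mark GAGGAA, again searched on both strands together with CGGAAG.
Bid intronic region: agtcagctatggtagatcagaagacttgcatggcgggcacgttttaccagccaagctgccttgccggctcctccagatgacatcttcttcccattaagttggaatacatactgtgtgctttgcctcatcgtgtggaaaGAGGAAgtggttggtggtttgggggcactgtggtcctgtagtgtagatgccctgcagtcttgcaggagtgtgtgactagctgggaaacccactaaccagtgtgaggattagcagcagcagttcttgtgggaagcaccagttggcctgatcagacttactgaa
The GAGGAA began 12 bases before the median summit. These letters occur in 66.2% to 69.4% of the PU.1 peaks of a library, over 300 bases around the summit, and in 28.3% of all promoter windows of 300 bases. The ATAC peak over it, chr6:120901824-120902470, was at 9.82, 7.89, 7.36 and 6.60 CPM in OCR and 6.32 and 6.76 CPM in OCRRF HSCs, with a log2 difference of 0.29 (SE 0.181, adjusted p = 0.566). A region within Bcl2l1, chr2:152788861-152789401, had a PU.1 peak in OAL replicate 2 (fold enrichment 5.47) and OCR replicate 1 (7.30). No PU.1 peak was called in the other 7 members or up to 5 kb upstream of them.

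Fas, at chr19:34290666-34327772 on the plus strand, encodes the death receptor CD95. In young HSCs it was at 7.27, 14.9, 10.2 and 9.94 CPM in YAL, 2.81, 1.95, 2.56 and 2.77 in YCR and 9.32, 9.86, 14.0 and 6.03 in YCRRF libraries. All YCR libraries were below every YAL and every YCRRF library, with 33 to 88 counts against 123 to 472 and 66 to 397. Fas fell with short restriction by 2.04 on the log2 scale (SE 0.322, adjusted p = 0.0285). In YCRRF against YCR HSCs the log2 fold change was 1.94 (SE 0.397, unadjusted p = 0.000473, adjusted p = 0.212), and in YCRRF against YAL HSCs it was -0.10 (SE 0.352, adjusted p = 0.999). The restricted and refed comparisons share the YCR libraries.

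The fall with short restriction was lost in 7 of 8 fits with a library left out, with adjusted p of 0.0636 to 0.110 without each YCR library or without YAL replicate 2, 3 or 4, and was kept without YAL replicate 1 (adjusted p = 0.0437), with log2 fold changes of -2.19 to -1.84. Without YCR replicate 1 it was -2.09 (adjusted p = 0.0715). The fall was kept with DESeq2 (adjusted p = 1.47e-08) and with 1 fit of all diet groups (adjusted p = 0.000839). It was lost with the replicate block (adjusted p = 0.164). The refed difference passed with DESeq2 (1.95, adjusted p = 9.73e-06) and with 1 fit of all diet groups (1.96, adjusted p = 0.00104), and without YCRRF replicate 3 it was 1.71 (adjusted p = 0.149). The summed megakaryocyte level was 179 to 248 CPM in YAL, 250 to 402 in YCR and 160 to 312 in YCRRF HSCs, so that YCR and YAL libraries did not overlap in it either. T cell genes summed to 6.53 to 24.4 CPM in YAL and 7.13 to 32.6 in YCR HSCs. Granulocyte and monocyte genes summed to 444 to 1217 CPM in YAL, 394 to 781 in YCR and 733 to 2159 in YCRRF HSCs, with overlap. The part of these genes in the Fas difference was not tested.

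In old HSCs Fas was at 8.34, 6.82, 7.00 and 6.76 CPM in OAL, 4.82, 6.24, 5.40 and 6.00 in OCR and 7.30 and 9.42 in OCRRF libraries. All OCR libraries were below all OAL and OCRRF libraries. The log2 fold change was -0.35 with lifelong restriction (SE 0.161, unadjusted p = 0.0404, adjusted p = 0.277) and 0.51 with refeeding (SE 0.214, adjusted p = 0.208), and neither passed the test. The old response minus the young one was 1.70 (SE 0.353, unadjusted p = 0.000114, adjusted p = 0.0996). This difference mixes age with the duration of restriction and the source of the mice. In OCR HSCs the summed level of 5 NK cell genes was 39.5 to 52.4 CPM, against 57.5 to 68.6 in OAL HSCs. This level came mostly from Klrb1c and Nkg7, and its part was not tested. With age the log2 fold change of Fas was -0.54 (SE 0.233, adjusted p = 0.146). It was called without YAL replicate 1 (-0.69, adjusted p = 0.0494).

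The 250 bases upstream of the RefSeq start of Fas are shown as the promoter of the member with the largest change with diet (chr19:34290409-34290658, mm10, plus strand). There are no capitals, since neither GAGGAA nor CGGAAG nor the forkhead letters GTAAACA were found on either strand, and that says only that these letters are not in this window.
Fas upstream region: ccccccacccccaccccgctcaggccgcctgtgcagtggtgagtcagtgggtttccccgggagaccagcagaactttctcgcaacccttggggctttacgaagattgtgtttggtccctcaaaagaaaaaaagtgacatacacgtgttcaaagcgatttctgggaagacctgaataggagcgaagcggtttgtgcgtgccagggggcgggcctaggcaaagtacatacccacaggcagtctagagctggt
In all windows of this length, GAGGAA was found in 23.3%, CGGAAG in 13.6% and GTAAACA in 3.17%. Among the RefSeq windows of 300 bases, which cover 9 members, GAGGAA was in those of Bcl2, Bid and Bak1, and GTAAACA in 1 window each of Bcl2l11 and Bbc3. CGGAAG was in windows of Mcl1, Bcl2l11 and Bcl2l1.

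The ligand gene Fasl, named here after its values were seen, had 0 to 17 counts in the diet libraries and at most 0.651 CPM. Lists of other apoptosis genes were counted in the same fits. Of 14 other BCL2 family genes tested in OCR against OAL HSCs, 1 was higher, Bok, an effector-like member (6.05 against 3.43 CPM, log2 fold change 0.83, SE 0.191, adjusted p = 0.00574). Of 16 caspase and mitochondrial release genes 1 was higher, Birc5, which encodes survivin, an inhibitor of apoptosis that also acts in cell division (29.7 against 9.38 CPM, log2 fold change 1.68). Of 14 p53 pathway genes Pidd1 was higher (0.47, adjusted p = 0.0256) and Perp lower (-0.49, adjusted p = 0.0199), and of 12 death receptor genes 0 were called, with 1 at an unadjusted p below 0.05. Of the caspase and release genes 5 had an unadjusted p below 0.05, as had 3 p53 pathway and 2 other family genes. Over all genes 2.54% were called higher and 3.03% lower in this comparison, and 16.2% had an unadjusted p below 0.05.

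After refeeding, in OCRRF against OCR HSCs, Bok fell by 1.09 and Birc5 by 1.97 on the log2 scale. Also lower were Cycs, which encodes cytochrome c (-0.59, adjusted p = 0.0137), Aifm1 (-0.57, adjusted p = 0.00659), Pidd1 (-0.75) and Ccng1 (-0.45), so that 1 of 14 other family genes, 3 of 16 caspase and release genes and 2 of 14 p53 pathway genes were lower and none of the 4 lists held a higher one. Over all genes 2.71% were called lower and 0.694% higher. The 13 death receptor genes held 0 called, and 0 at an unadjusted p below 0.05 (16.9% of all genes). Below that p were 9 of 16 caspase and release genes, 4 of 14 p53 pathway and 2 of 14 other family genes. In OCRRF against OAL HSCs Aifm1 (-0.45), Vdac2 (-0.28), Perp (-0.65) and Ccng1 (-0.27) were lower, where 2.48% of all genes were called lower. With age, Tnfsf10, which encodes the ligand TRAIL, rose (0.60, adjusted p = 0.00234), as did Apaf1, the apoptosome scaffold, while Ripk3, Diablo, Trp53, Sesn2 and Aen fell, so that 1 of 12 death receptor genes was higher and 1 lower, 3 of 14 p53 pathway genes lower and 0 of 12 other family genes called (0 at an unadjusted p below 0.05). An unadjusted p below 0.05 was found for 3 of 12 death receptor and 5 of 14 p53 pathway genes. The tally of the caspase and release list is not reported here. Over all genes 6.89% were called higher and 7.93% lower, and 30.8% had an unadjusted p below 0.05. In the comparisons of the young diet groups 0 genes of the 4 lists were called by edgeR. In YCR against YAL HSCs 3 of 16 caspase and release genes, 2 of 12 death receptor genes, 3 of 14 p53 pathway genes and 0 of 9 other family genes had an unadjusted p below 0.05, against 9.29% of all genes.

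In the knockdown libraries the target was measured first. Kdr was at 1.93, 2.21, 3.28 and 2.03 CPM in GFP_Kdr cells against 6.04 and 6.07 CPM in their scramble controls, and at 1.24, 0.556, 1.60 and 1.35 CPM in double knockdown cells against 3.98 and 4.63 CPM. Bmpr1a was at 4.44 and 0.657 CPM with shRNA1 and 2.22 and 0.595 CPM with shRNA2, against 5.21 and 4.43 CPM in the controls. Every knockdown library was below its controls for Kdr (log2 fold changes -1.35, SE 0.251, adjusted p = 0.247, and -1.86, SE 0.373, adjusted p = 0.272), and for Bmpr1a replicate 1 of shRNA1 lay within the controls and the other 3 below them.

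Among the members, 0 of 10 were called with Kdr knockdown and 0 of 10 with the double knockdown, by edgeR and by DESeq2. Of all genes 0.0149% and 0.00498% were called by edgeR, and 2 members and 1 member had an unadjusted p below 0.05 (8.90% and 9.85% of all genes). The median log2 fold change of the members was -0.18 with Kdr knockdown and -0.00 with both, and that of all genes was -0.00 in each. The difference between the double and the single knockdown response was called for 0 members by edgeR and by DESeq2, with 0% of all genes called and 1 member at an unadjusted p below 0.05 (3.58% of all genes).

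**Figure D3:**
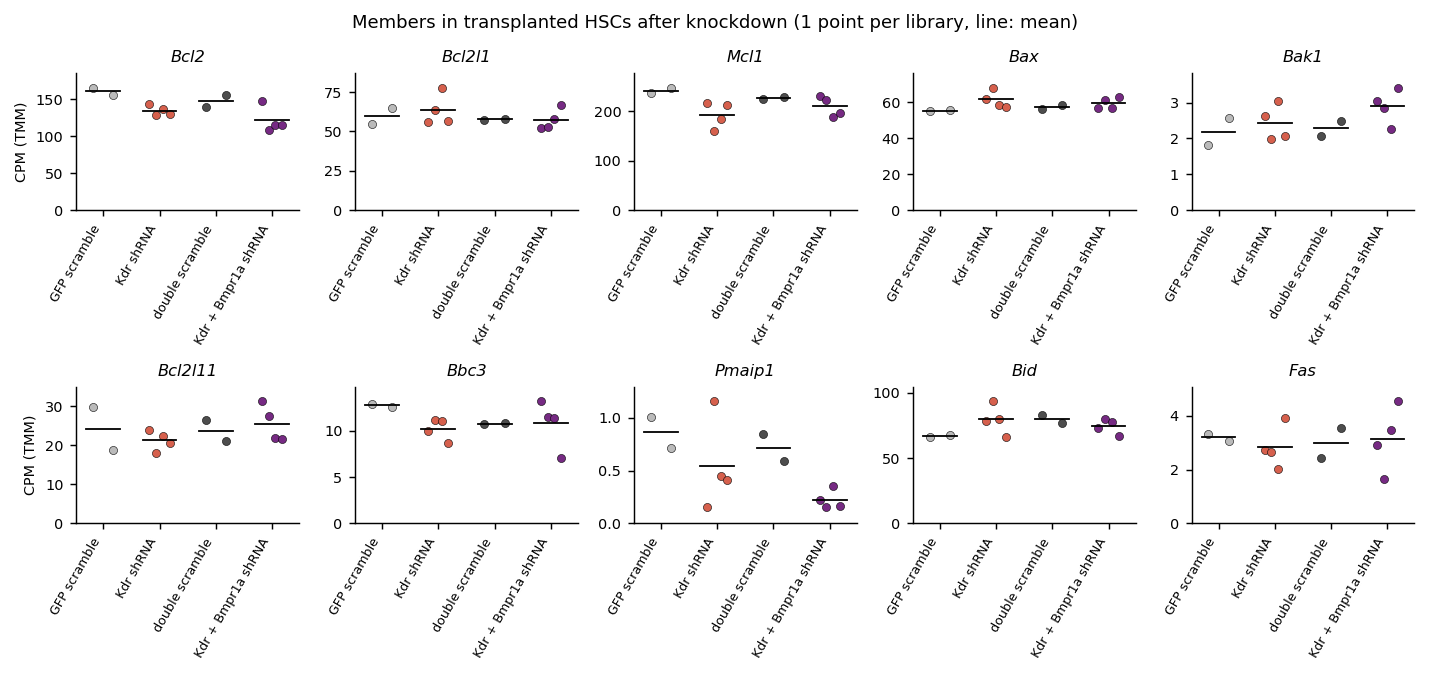
CPM of each of the 10 genes (vertical axes from 0, each on its own scale) in the 12 libraries of transplanted cells, with 1 point per library and a line at the group mean. Bcl2 lies at 129 to 143 CPM in the 4 GFP_Kdr libraries, below its 2 scramble controls at 165 and 157 CPM.

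Bcl2 was at 143, 129, 137 and 130 CPM in GFP_Kdr cells against 165 and 157 CPM in the controls, without overlap (log2 fold change -0.26, SE 0.0725, adjusted p = 0.368). Beside this, the HSC genes summed to 2712 to 3112 CPM in GFP_Kdr cells against 3299 to 3500 in the controls, without overlap. The B cell genes summed to 36.6 to 53.6 against 29.2 to 35.9, also without overlap. The 9 granulocyte and monocyte genes summed to 1315 to 3597 CPM in GFP_Kdr cells against 793 to 2627, with overlap. With the double knockdown they summed to 787 to 3699 CPM against 2201 to 5488, also with overlap. The part of these sums in the differences was not tested. In double knockdown cells Bcl2 was at 147 and 108 CPM with shRNA1 and 116 and 116 CPM with shRNA2, against 139 and 155 CPM, with overlap (-0.27, SE 0.121, adjusted p = 0.514), while the B cell genes summed to 43.1 to 55.4 CPM against 30.4 to 39.2. Neither difference passed the test. Mcl1 was at 217, 159, 185 and 211 CPM in GFP_Kdr cells against 236 and 247 CPM (-0.32, SE 0.119, adjusted p = 0.493). The double knockdown difference of Mcl1 was -0.11.

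Bax was at 62.1, 68.0, 58.7 and 57.6 CPM in GFP_Kdr cells against 54.9 and 55.5 CPM (0.16, adjusted p = 0.647), and Bbc3 at 9.99, 11.1, 11.1 and 8.74 CPM against 12.9 and 12.6 CPM (-0.32, adjusted p = 0.588). Both stood apart from their controls and neither was called. Mcl1 with Kdr knockdown and Pmaip1 with the double knockdown also did not overlap their controls. The share of all genes without overlap was not counted, here or in the diet groups. Fas was at 2.71, 2.67, 2.01 and 3.91 CPM in GFP_Kdr cells against 3.34 and 3.06 CPM (-0.18, SE 0.285, adjusted p = 0.880). In double knockdown cells Fas was at 2.92 and 1.67 CPM with shRNA1 and 3.47 and 4.55 CPM with shRNA2, against 2.45 and 3.54 CPM (0.07, SE 0.386, adjusted p = 0.974). Its libraries overlapped in both comparisons.

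Bid was at 78.4, 93.4, 79.9 and 66.2 CPM in GFP_Kdr cells against 65.9 and 67.5 CPM (0.25, SE 0.126, adjusted p = 0.594), and its log2 fold change was -0.10 with both knockdowns. Pmaip1 was at 0.225 and 0.152 CPM with shRNA1 and 0.349 and 0.162 CPM with shRNA2 against 0.842 and 0.591 CPM (-1.67, SE 0.568, adjusted p = 0.414). It was at 0.152, 1.16, 0.446 and 0.407 CPM in GFP_Kdr cells against 1.01 and 0.717 CPM, with overlap. Over all 12 transplanted libraries Bcl2l1 lay between 52.2 and 77.7 CPM, Bcl2l11 between 17.9 and 31.2 and Bak1 between 1.83 and 3.41. These 3 genes overlapped between knockdown and control libraries in both experiments.

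Chromatin accessibility was compared between OCR HSCs (4 ATAC-seq libraries) and OCRRF HSCs (2). Of 64 consensus peaks in the 10 genes or up to 5 kb upstream of them, 62 were tested and 0 were called by edgeR or DESeq2, against 0.221% of all 123372 peaks tested, where a call needed an adjusted p below 0.05, a fold above 1.5 and a mean log2 CPM above 1.5. At an unadjusted p below 0.05 there were 6, 4 of them at Bcl2 and 2 at Bcl2l11, against 11.7% of all peaks. The median log2 difference was -0.01 over the member peaks and 0.01 over all peaks. Bcl2 held 30 of the 64 peaks, with log2 differences of -0.46 to 1.29, and Bcl2l1 held 9, Bid and Bcl2l11 6 each, Bbc3 4, Fas 1 and the other 4 genes 2 each.

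**Figure D4:**
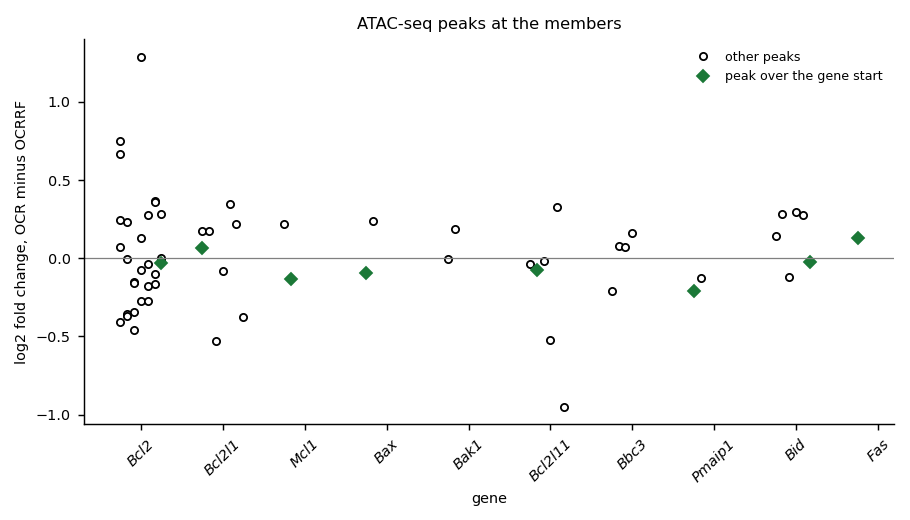
Log2 difference in accessibility, OCR minus OCRRF (vertical axis), of the 62 tested peaks at the 10 genes, with 1 point per peak. The points lie between -0.95 and 1.29 with a median of -0.01, and none was called.

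The peak over the Bcl2 start, chr1:106713640-106714872, was at 39.9, 45.1, 40.3 and 47.9 CPM in OCR and 45.5 and 43.0 CPM in OCRRF HSCs (log2 difference -0.03, SE 0.0809, adjusted p = 0.927). Bcl2 RNA was called lower in OCRRF HSCs, and the accessibility of its start overlapped between the groups. The only peak at Fas, chr19:34290161-34291428, covers its start and was at 21.6, 20.2, 17.7 and 18.0 CPM in OCR against 18.0 and 17.6 CPM in OCRRF HSCs (0.13, SE 0.114, adjusted p = 0.714). It overlapped too. The start peaks of Mcl1, Bcl2l1, Bax, Bcl2l11, Bid and Pmaip1 differed by -0.13, 0.07, -0.10, -0.07, -0.02 and -0.21. The largest of the Bcl2 differences with an unadjusted p below 0.05 was at a small peak, chr1:106644561-106644885, at 1.45, 1.22, 0.680 and 0.635 CPM in OCR and 0.339 and 0.483 CPM in OCRRF HSCs (1.29, SE 0.534, adjusted p = 0.315).

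Histone marks were measured at gene starts in 2 OCR libraries each, as signal per base over 750 bases from the start for H3K4me3 and 2000 bases for H3K27me3. H3K4me3 marks starts of genes in use, and H3K27me3 is laid down by Polycomb at silent ones. All 10 members were above the median H3K4me3 signal of 25127 genes (10.5). The highest was Bak1, at 44.0 and 39.8, followed by Bcl2 at 42.3 and 37.9 and Mcl1 at 39.1 and 38.8. Bak1 and Bcl2 thus lay above 94.6% and 92.7% of genes, although their RNA levels per kilobase differed widely.

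H3K27me3 was above the upper quartile of all genes (0.812) at 2 members. Pmaip1 had 6.92 and 6.37, more than 98.7% of genes, and also the lowest H3K4me3 of the 10, at 18.5 and 16.3. Fas had 0.827 and 1.17, more than 79.5% of genes, with H3K4me3 of 23.2 and 20.9. Bcl2l11 was next with 0.416 and 0.316, and the other 7 lay below the median of all genes, 0.322. The share of members above the upper quartile, 2 of 10, was no larger than that of all genes, and nothing is read from it. Fas was close to that cut, at 0.827 in library 1, and Pmaip1 was far above it in these OCR libraries. The other diets were not analysed here for these marks.

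**Figure D5:**
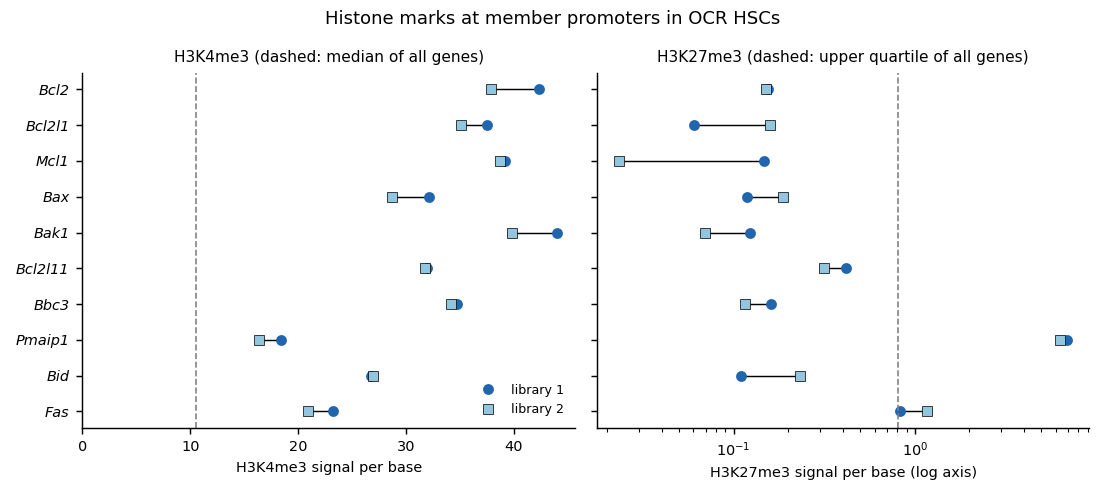
Signal per base of H3K4me3 (left, linear axis) and H3K27me3 (right, log axis) at the start of each gene in the 2 OCR libraries of each mark, with dashed lines at the median (left) and the upper quartile (right) of all genes. Pmaip1, at 6.92 and 6.37, and Fas, at 0.827 and 1.17, lie beyond the dashed line for H3K27me3.

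Across the 22 diet libraries, which share groups, sequencing depth and the age difference, the genes whose log2 CPM ran most like that of Fas among 12329 were Aldoc (Pearson's r = 0.861), Ikzf4 (0.851), Pqlc3 and Trim12a (0.849 each) and Arhgef3 (0.841). For Bcl2 they included Suds3 (0.845), Galnt6os (0.831), Galnt6 (0.821) and Tmed10 (0.818). These are descriptions over libraries that are not independent, and no test was made.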

How the data were processed

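The study's HSC libraries of 6 diet groups and of 4 knockdown and control groups were analysed from the files the authors deposited. The RNA-seq counts deposited by the authors were made by trimming (trim galore 0.4.3, cutadapt 1.12) and alignment to mm10 by STAR. They are featureCounts counts per gene (GENCODE M22), with no normalization. Multi-mapping and strand settings are not given in the sources used here, and the diet and transplanted libraries were made with different kits. For ATAC-seq the authors deposited counts in consensus peaks (BWA, MACS2). The deposited histone signal is the mean coverage per base at each transcript start, scaled to a fixed number of reads, and for each gene the transcript with the highest H3K4me3 was used. The deposited PU.1 peaks carry the score, the fold enrichment and the -log10 of p and q from MACS2, called per library. These last files give no counts per region, so the counts behind each value are unknown, although the reporting summary lists reads per library.

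Genes passing filterByExpr were TMM-normalized and tested with edgeR 4.0.16 (R 4.3.3), each comparison on its own groups and adjusted over all genes tested. SEs are the log2 fold change over the root of F. Diet libraries share 1 scaling and transplanted libraries another. Scripts were tested on simulated counts. Coordinates are GENCODE M21 and sequences RefSeq, both GRCm38. The 34 RNA and 6 ATAC libraries held 11102898 to 44780217 and 15721335 to 19558148 counts, and intervals, SEs and limits for a count of 0 do not cover errors in library making. Alternatives were DESeq2 1.42.0, its size factors, TMM factors from genes of at least 5 CPM, no filter, at least 10 counts in every library, a replicate block, the adjusted p alone, 1 fit of all groups, and each library left out. Members and lists were chosen with earlier results of these data known. Named list genes are up to 6 called genes a list, by adjusted p. OAL libraries of ATAC-seq and histone marks were not analysed here. PU.1 libraries of old control mice were taken as OAL. A few items are not reported here.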

Additional observations from a re-analysis of the deposited data

Results flagged for a closer look

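In 60 combinations of a member and a group of 4 libraries, the highest or lowest library was set against the rest by Dixon's ratio of its gap to the group's range, with a limit of 0.829. Chance passes about 1 in 20 groups, and 6 passed. Fas in OAL replicate 1 was at 8.34 CPM, with the other 3 libraries at 6.76 to 7.00. Bak1 was at 6.42 CPM in OAL replicate 4 against 4.05 to 4.27, and Bbc3 at 12.4 CPM in OAL replicate 3 against 9.31 to 9.76. Bcl2l11 was at 8.47 CPM in YCR replicate 2 against 13.8 to 14.2. In YCRRF replicate 3, Bak1 was at 19.1 CPM against 5.58 to 7.05 and Bcl2 at 106 CPM against 137 to 141.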

How the results depend on the processing

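No member changed direction after a call under any alternative run. Counts of members called moved as follows. With DESeq2 they were 2 for OCRRF against OCR, 3 for OCRRF against OAL, 1 for YCRRF against YCR and 1 for the old minus young response. With 1 fit of all groups they were 0 for OCRRF against OCR and 1 for YCRRF against YCR. For OCRRF against OAL, DESeq2's size factors and no filter gave 1 each. At least 10 counts in every library gave 1 for the old minus young response. PU.1 regions numbered 1 within 1 kb of a gene start, in place of 3. With each library left out, the counts ranged from 0 to 1 for OCR against OAL (Bcl2 without OAL replicate 2, 0.29, adjusted p = 0.0450), OCRRF against OCR, YCR against YAL and the old minus young response (Fas without YAL replicate 1, 1.87, adjusted p = 0.0486), and from 2 to 4 for OAL against YAL. The causes were not tested. With 1 of 2 OCRRF libraries left out, the lone library is assumed to vary like the other group.

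Same-numbered libraries did not pair, with correlations of -0.293 to 0.185. With the replicate block 1 member was called in OCRRF against OAL (Bcl2, -0.36, adjusted p = 0.0106), 0 in YCR against YAL (Fas -2.0, adjusted p = 0.164), and Bbc3 was lost in OAL against YAL (adjusted p = 0.0684).

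Over all genes, calls ranged over the alternatives other than left-out libraries from 212 to 1775 for OCR against OAL (1511), 64 to 3437 for OCRRF against OCR (1110), 0 to 4499 for OCRRF against OAL (1316), 7 to 517 for YCR against YAL (48), 0 to 538 for YCRRF against YCR (2), 0 to 50 for YCRRF against YAL (0), 1651 to 7891 for OAL against YAL (3486), 3 to 239 for the old minus young response (12), 0 to 261 and 0 to 333 for the Kdr and the double knockdown (3 and 1), and 0 to 5 for their difference (0). Depth limits Pmaip1, and 2 control libraries limit each knockdown comparison.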

Other observations

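Casp8, which encodes the caspase that Fas activates, was higher than its controls in every knockdown library of both transplanted experiments. How many of all genes stood apart from their controls in this way was not counted. Casp8 was chosen after its values were seen. Its mean was 212 ± 14.6 CPM in GFP_Kdr cells (SD, n = 4) against 172 ± 3.01 in their controls (n = 2), a log2 fold change of 0.31 (SE 0.0805, unadjusted p = 0.00437, adjusted p = 0.354, edgeR). In double knockdown cells it was 215 ± 15.2 CPM (n = 4) against 173 ± 0.212 (n = 2), a log2 fold change of 0.32 (SE 0.0725, unadjusted p = 0.00242, adjusted p = 0.287). Neither passed the test over all genes. The summed level of 6 B cell genes was also above the controls in every knockdown library, at 36.6 to 53.6 CPM against 29.2 to 35.9 and at 43.1 to 55.4 CPM against 30.4 to 39.2, and its part in the Casp8 difference was not tested. In the diet libraries the group means of Casp8 lay between 108 CPM in OCRRF and 127 CPM in YAL HSCs.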
